A study of Rattus norvegicus with 18 samples.

Results

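Icam1 and Vcam1 encode the cell surface ligands by which leukocytes hold on to inflamed endothelium and epithelium, and both were read here in rat cortical collecting ducts, the last tubule segments of the renal cortex. They were taken from the table by gene symbol, which gave 2 genes of 32883 in all: Icam1 (ENSRNOG00000020679) and Vcam1 (ENSRNOG00000014333). The ducts were microdissected from kidneys of pathogen-free male Sprague-Dawley rats, with no genetic change named in the labels, at 3 h after an intraperitoneal injection. The LPS group received lipopolysaccharide, a bacterial cell wall component, and the Vehicle group received normal saline (dose and age not given in the sources used here). Each group held 3 numbered samples with 3 libraries from each, 18 libraries in all, and the comparison asks how far the RNA of each gene differed between the groups early after LPS. Whether the numbered samples came from separate animals is not stated, so p-values measure only the spread between these samples, which may be technical.

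ICAM-1 is bound by the leukocyte integrins that contain the Itgb2 chain, with Itgal or Itgam as the partner chain. VCAM-1 is bound by the integrin of the Itga4 and Itgb1 chains. Both genes are low in resting tissue and are known targets of NF-kappaB, the transcription factor that tumour necrosis factor, interleukin 1 and Toll-like receptors activate; interferon regulatory factors are known to act on them too. In kidney, ICAM-1 is known from endothelium and from inflamed tubule epithelium, and VCAM-1 from endothelium and injured tubules.

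The promoter windows of both genes are shown because their letters include short patterns of the kind bound by those factors. The windows run from 250 bases before to 50 bases after the RefSeq start site in build GRCr8, chr8:27829595-27829894 on the plus strand for Icam1 and chr2:206742734-206743033 on the minus strand for Vcam1, and are written 5′ to 3′ along the gene. Capitals mark every match, on either strand, to one of the patterns named in the next paragraph. The TPM values rest on another build, Rnor_6.0.
Icam1: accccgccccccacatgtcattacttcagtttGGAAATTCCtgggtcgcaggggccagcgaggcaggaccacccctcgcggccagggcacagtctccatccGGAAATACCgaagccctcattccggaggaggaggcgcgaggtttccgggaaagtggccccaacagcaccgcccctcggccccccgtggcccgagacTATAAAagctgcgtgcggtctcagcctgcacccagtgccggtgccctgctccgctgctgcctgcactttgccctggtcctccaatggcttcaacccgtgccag
Vcam1: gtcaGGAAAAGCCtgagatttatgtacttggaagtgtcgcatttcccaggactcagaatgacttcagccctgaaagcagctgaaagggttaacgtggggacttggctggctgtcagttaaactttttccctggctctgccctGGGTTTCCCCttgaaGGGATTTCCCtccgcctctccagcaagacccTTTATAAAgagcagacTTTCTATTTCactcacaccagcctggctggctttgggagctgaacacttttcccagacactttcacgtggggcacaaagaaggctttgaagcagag

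For NF-kappaB (kappaB) sites the patterns were one of 9 letters, GGNNNTTCC, and one of 10 letters, GGG, any 2 bases, T, any base and CCC. For interferon regulatory factors (IRF) the pattern was GAAA, any 2 bases and GAAA, and for the TATA box TATAAA. The 9-letter kappaB pattern matched Icam1 with its first letter 218 and 149 bases upstream of the start site and Vcam1 at 246 and 93 bases. The 10-letter kappaB pattern matched Vcam1 at 108 and 93 bases, as a tandem GGGTTTCCCC and GGGATTTCCC, the latter overlapping the 9-letter match, and had no match in the Icam1 window. The IRF pattern lay 46 bases upstream in Vcam1 and had no match in the Icam1 window. TATAAA began 53 bases upstream in Icam1 and 60 in Vcam1, where TATAAA also matched the other strand at 62 bases. Of all 33469 RefSeq promoter windows of this length, 18.3% held the 9-letter kappaB pattern, 5.12% the 10-letter one, 3.92% the IRF pattern and 14.2% TATAAA. The patterns were chosen with both sequences in view, and a match is a description of the letters.

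**Figure D1:**
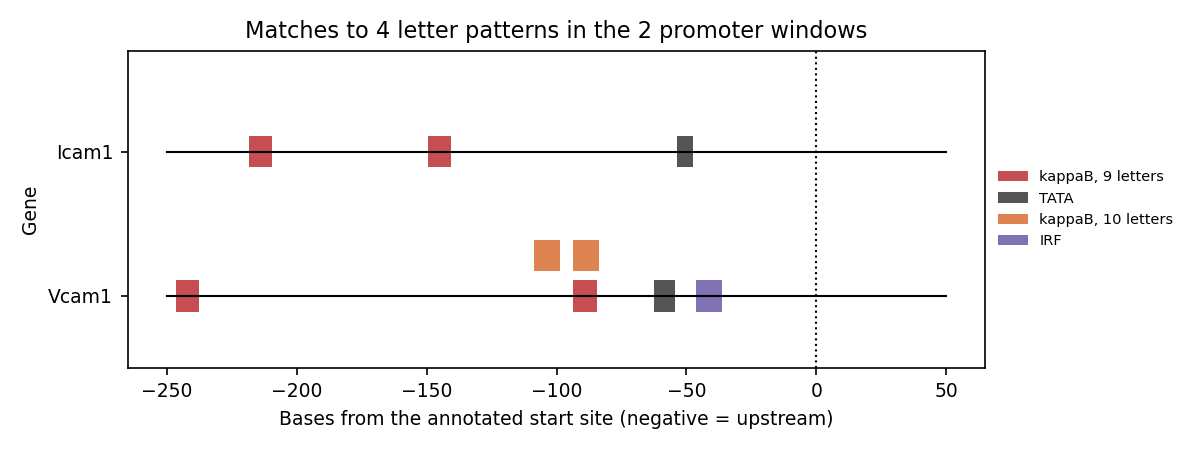
Matches to the 4 patterns in the promoter windows of Icam1 (upper line) and Vcam1 (lower line), by distance in bases from the annotated start site (dotted line); coloured boxes are matches on either strand. Vcam1 holds the tandem 10-letter kappaB matches at 108 and 93 bases upstream, and Icam1 the 9-letter matches at 218 and 149 bases.

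Icam1 rose from a low level in Vehicle to one of the more abundant transcripts after LPS. In TPM, a relative transcript abundance corrected for transcript length and library size, the Vehicle libraries read 8.86, 15.9 and 21.2 in sample 1, 7.32, 6.16 and 7.03 in sample 2, and 8.40, 8.75 and 5.94 in sample 3. The LPS libraries read 432, 310.2 and 335 TPM in sample 1, 493, 439.8 and 416 in sample 2, and 420.2, 459 and 556 in sample 3. No LPS library came near a Vehicle library: the lowest of the 9 LPS values was 310.2 and the highest Vehicle value 21.2 TPM. Among all tested genes, 5.12% had all 9 LPS libraries above all 9 Vehicle libraries; the libraries of 1 sample share their source and are not separate replicates. Over the numbered samples Icam1 averaged 9.95 ± 4.66 TPM without and 429 ± 62.2 TPM with LPS (SD, n = 3), a ratio of the means of 43.1. On the log2(TPM + 1) scale, which understates changes of low genes, it rose by 5.39 (SE 0.279, limma adjusted p = 0.000232), with 4.53, 5.84 and 5.79 in the 3 pairs of same-numbered samples.

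Vcam1 rose from a level near 1 TPM to a moderate one. Its Vehicle libraries read 1.14, 2.32 and 4.14 TPM in sample 1, 0.56, 0.66 and 1.03 in sample 2, and 2.07, 2.44 and 1.63 in sample 3. Its LPS libraries read 112, 149 and 98.4 TPM in sample 1, 72.7, 88.6 and 45.1 in sample 2, and 92.0, 100.5 and 299 in sample 3. All 9 LPS libraries lay above all 9 Vehicle libraries, but the LPS values spread more than those of Icam1, with the highest 6.64 times the lowest against 1.79 times for Icam1, or 3.31 against 1.59 times without library 3 of LPS 3. The numbered samples averaged 1.78 ± 0.922 TPM without and 118 ± 47.6 TPM with LPS (SD, n = 3), a ratio of the means of 66.2. The log2 rise was 5.33 (SE 0.193, limma adjusted p = 6.77e-05), with 5.17, 5.27 and 5.55 in the 3 pairs.

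**Figure D2:**
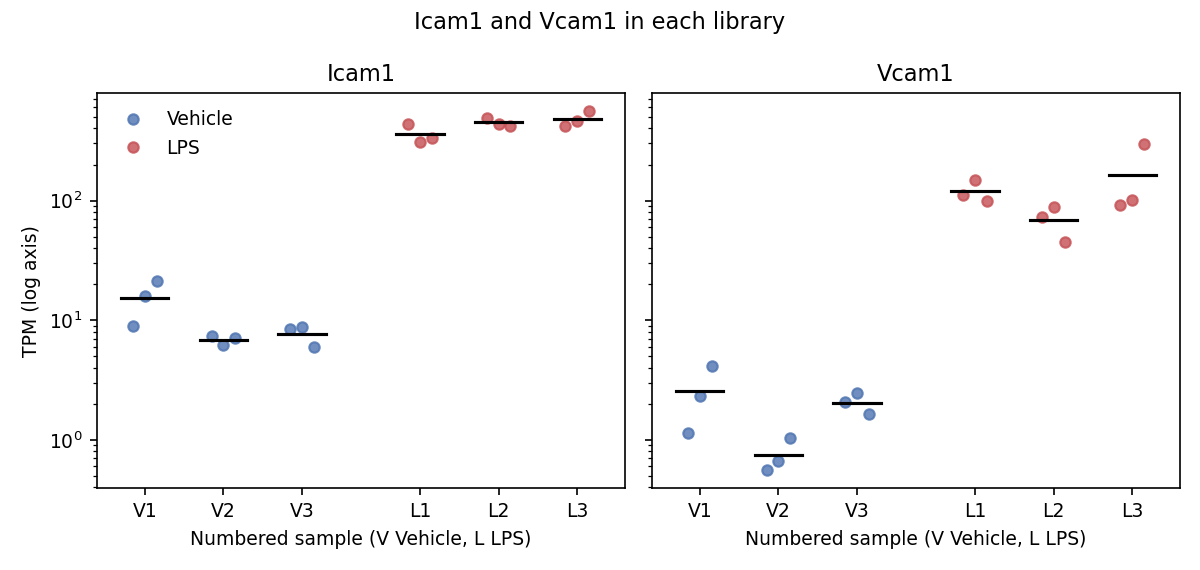
TPM of Icam1 (left) and Vcam1 (right) on a log axis in each library (points) of the numbered Vehicle (V, blue) and LPS (L, red) samples; black bars are means over the 3 libraries of a sample. All LPS libraries lie above all Vehicle libraries for both genes, from 310.2 TPM for Icam1 and from 45.1 TPM for Vcam1, and LPS 3 holds 1 library with 299 TPM of Vcam1.

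Both of the 2 genes were called higher, against a background of 7.17% of the 12393 tested genes called higher, 22.2% called lower and 29.4% in either direction. By size of the log2 rise Icam1 ranked 36 and Vcam1 38 among the 12393. By level, counted from the most abundant tested gene, Icam1 moved from rank 7640 in Vehicle to rank 403 in LPS and Vcam1 from 11457 to 1377. Without the samples numbered 3, limma called no gene of the table at an adjusted p under 0.05, with 738 higher and 1463 lower at an unadjusted p under 0.05; Icam1 and Vcam1 then rose by 5.19 and 5.22, each with adjusted p = 0.196. With the median of a sample's libraries in place of their mean limma also called 0 genes, and the adjusted p was 0.0545 for both.

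**Figure D3:**
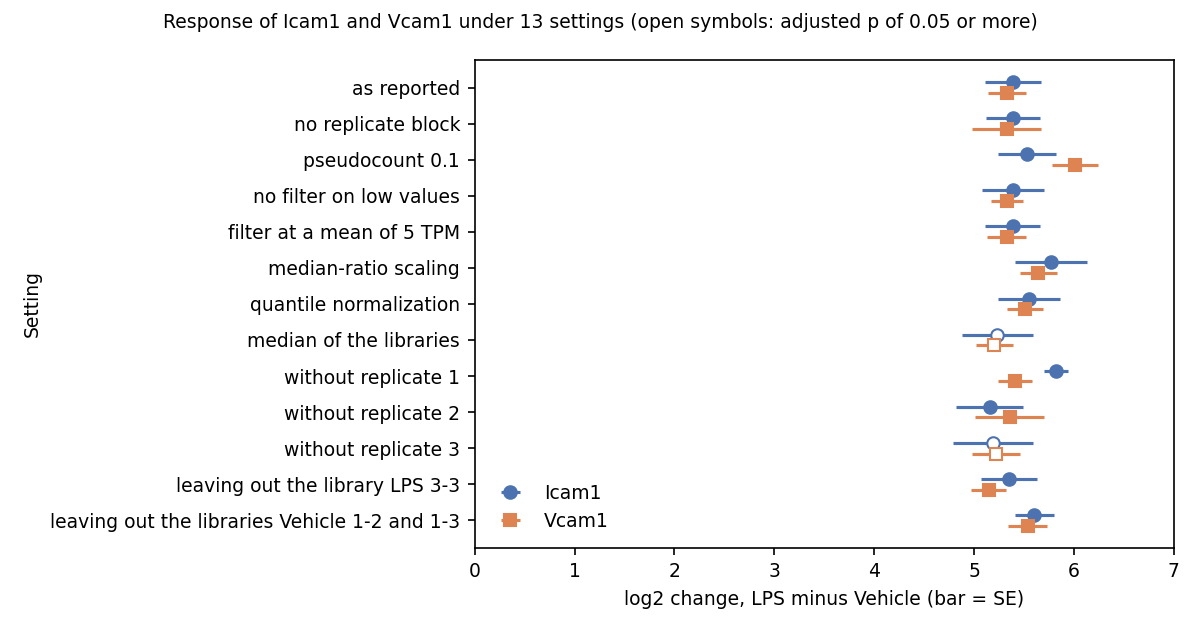
log2 change of Icam1 (blue circles) and Vcam1 (orange squares), LPS minus Vehicle with SE bars, as reported (top) and under 12 alternatives; filled symbols passed an adjusted p under 0.05. Every value lies between 5.15 and 6.01, and the open symbols are those for the median of the libraries and for leaving out the samples numbered 3.

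Icam1 was the more abundant of the pair in 9 of 9 Vehicle and 9 of 9 LPS libraries. Per library, the Icam1 TPM was 3.59 to 13.1 times the Vcam1 TPM in Vehicle (median 6.83) and 1.86 to 9.22 times in LPS (median 4.56), so these ranges overlap. The log2 ratio of Vcam1 to Icam1, each as TPM + 1, was -2.22, -2.17 and -1.51 in Vehicle 1, 2 and 3 and -1.58, -2.74 and -1.75 in LPS 1, 2 and 3. The mean ratio differed between the groups by -0.06, less than the SD of 0.399 in Vehicle and 0.626 in LPS (two-sided exact permutation test, p = 0.90; the smallest p that 3 against 3 allows is 0.10). Within the pairs the difference was 0.64, -0.57 and -0.24, in both directions. The rise was not called different between the genes, and with 3 samples a group such a p does not show that they responded alike.

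For most genes called higher, LPS 1 stood below the mean of LPS 2 and 3, by less for Icam1 and not for Vcam1; genes called lower were not compared in this way. Over the 889 genes called higher, the log2 level in LPS 1 minus the mean of LPS 2 and 3 had a median of -0.74. For Icam1 that difference was -0.38, and for Vcam1 0.29, above 92.4% of the genes called higher. Vcam1 was not alone in this. Nfkb2 and Relb, genes of NF-kappaB subunits given here after their values were seen, stood at 0.22 and 0.09. These lay above 91.1% and 88.3% of the genes called higher, while Nfkb1, another subunit gene, stood at -1.37. Vcam1 in LPS 1, at 119.9 TPM, stood above the 68.8 TPM of LPS 2 and below the 164 TPM of LPS 3. Irf1, which encodes an interferon regulatory factor and is named here after its values were seen, was lower there, with 658 TPM in LPS 1 against 2561 and 2029.8 in LPS 2 and 3.

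Vehicle 1 held the highest Icam1 of the Vehicle group, in its libraries 2 and 3, at 15.9 and 21.2 TPM against 5.94 to 8.75 TPM in the 6 libraries of Vehicle 2 and 3. The same libraries carried 117 and 197 TPM of Irf1, against 15.2 in library 1 of that sample and 16.9 to 28.4 in Vehicle 2 and 3. Nfkbia, which encodes an inhibitor of NF-kappaB and is one of its targets, stood at 259.6 and 294.5 TPM there, against 71.3 in library 1 and 87.7 to 155 in Vehicle 2 and 3. Vehicle 1 also differed in markers of the distal convoluted and connecting tubule, mostly Calb1, which summed to 9756, 3326 and 1845 TPM in its libraries 1, 2 and 3 against 42.6 to 147 TPM in Vehicle 2 and 3. Its library 3 had the highest endothelial and monocyte and macrophage marker sums of the Vehicle group, 174 and 347 TPM. These sums were 77.4 and 310 TPM in library 1 and 74.0 and 153 TPM in library 2. The part of all these markers in the Icam1 values was not tested. Without libraries 2 and 3 of Vehicle 1, Icam1 rose by 5.60 (SE 0.194) and Vcam1 by 5.54 (SE 0.195), with limma adjusted p = 0.000476 for each.

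The dissected ducts also carried RNA with markers of other cells, and fewer cells of a type and less RNA per cell cannot be told apart in such samples. The ducts carried the markers of their label. Markers of principal cells, which take up water and sodium, summed to between 14857 and 18708 TPM in Vehicle and between 9139 and 13885 in LPS. Of these 11 markers 7, Aqp2 among them, were called lower, beside 22.2% of all tested genes. Their median change was -0.68 against -0.38 over all tested genes. Median-ratio scaling cut the genes called lower from 2757 to 460, and these 7 calls were not tested under it. Markers of acid or base secreting intercalated cells summed to between 5873 and 7364 TPM in Vehicle and between 3852 and 5915 in LPS. Of 15 endothelial markers 14 had a row; they summed to between 18.4 and 174 TPM in Vehicle (median 74.0) and between 21.9 and 131 TPM in LPS (median 54.4). Cldn5 was listed at 0 in all libraries, Vwf stood at 0.0578 and 0.0389 TPM, and of the 9 tested markers Flt1 was called higher and Egfl7 lower. The 14 monocyte and macrophage markers summed to between 76.8 and 347 TPM in Vehicle and between 119 and 554 TPM in LPS, with 5 of 11 tested markers higher, beside 7.17% of all tested genes, and 1, Csf1r, lower. The 7 neutrophil markers summed to a median of 0.56 TPM in Vehicle and 3.16 TPM in LPS, where the range was 1.29 to 235 TPM, with S100a8 listed at 0 in every Vehicle library and Ngp at 0 in 17 of 18 libraries. Of 12 fibroblast and mural markers with a row, 10 were below the filter, and they summed to between 7.03 and 14.9 TPM in Vehicle and between 1.68 and 12.4 TPM in LPS. The 7 T and NK cell markers summed to at most 4.55 TPM in Vehicle and 11.1 TPM in LPS. Proximal tubule markers, whose injured cells are a known source of VCAM-1, summed to between 13.1 and 115 TPM in Vehicle and between 18.4 and 105.5 TPM in LPS, with the injury marker Havcr1 at 0.0267 and 0.0533 TPM. Markers of the thick ascending limb summed to between 26.9 and 56.4 TPM in Vehicle and between 31.4 and 410.4 TPM in LPS, the highest in LPS 2 library 1.

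The Vcam1 level was spread less once it was divided by the endothelial marker sum, and that of Icam1 more. Plvap had the highest mean of these markers in both groups, so the ratios lean on that gene. In libraries 1, 2 and 3 of LPS 3, Plvap made up 18.3, 30.4 and 82.5 TPM of sums of 32.8, 54.4 and 131 TPM. Ratios to the sum without Plvap were not tested. In each of 3 LPS samples the 3 libraries had the same order by Vcam1 as by summed endothelial markers, which was so in 1 of 3 for Icam1 and in 0 of 3 Vehicle samples for either gene. Divided by that sum, Vcam1 lay between 1.46 and 2.80 over the 9 LPS libraries, so that the highest was 1.92 times the lowest, where Vcam1 itself differed by 6.64 times. Without library 3 of LPS 3 the ratios were still 1.92 times apart, and Vcam1 itself 3.31 times. Over the Vehicle libraries Vcam1 differed by 7.39 times and its ratio to the endothelial sum by 2.91 times. For Icam1 the same division gave values between 3.87 and 19.0, 4.89 times apart, where Icam1 itself differed by 1.79 times, and in Vehicle the ratio was 5.55 times and Icam1 3.57 times apart. The endothelial sum itself went from 21.9 to 131 TPM in LPS, a far wider range than that of Icam1. With such ranges the Icam1 ratio must spread more than Icam1 itself in LPS. What the widening for Icam1 or the narrowing for Vcam1 means for the cells that carried them was not tested. Among the monocyte and macrophage markers Lyz2 had the highest mean in both groups, 114 TPM without LPS and 152 TPM with it. Against the sum of these markers the Vcam1 values were 4.10 times apart, with the same order in 2 of 3 LPS samples.

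The difference between the groups remained in these ratios. In Vehicle the Vcam1 TPM was 0.0147 to 0.0429 of the endothelial sum, so the lowest LPS ratio of 1.46 was above the highest Vehicle ratio of 0.0429. For Icam1 the Vehicle ratios lay between 0.0718 and 0.398, below the lowest LPS ratio of 3.87. The endothelial sums themselves overlapped between the groups. Which cells carried the Vcam1 and Icam1 RNA was not tested.

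**Figure D4:**
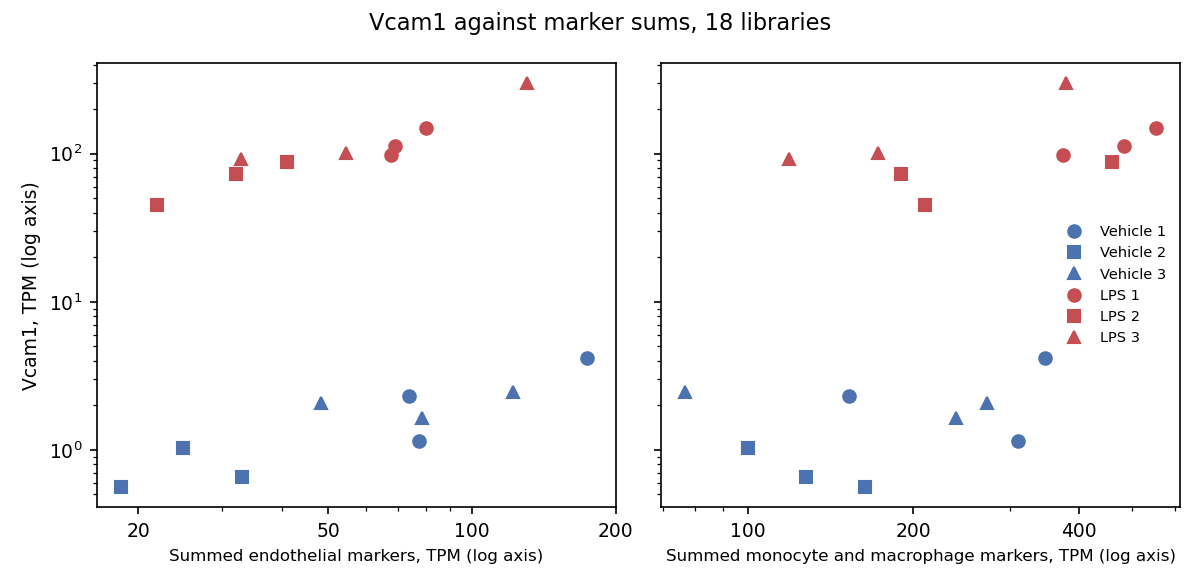
Vcam1 TPM (vertical log axis) against the summed TPM of endothelial markers (left) and of monocyte and macrophage markers (right, log axes) in the 18 libraries; colours are groups and symbols numbered samples. LPS libraries lie far above Vehicle libraries at like endothelial sums, and within LPS Vcam1 goes from 45.1 to 299 TPM as the endothelial sum goes from 21.9 to 131 TPM.

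Library 3 of LPS 3 stood apart in this respect. Its Vcam1, 299 TPM, exceeded the mean of libraries 1 and 2 of that sample by 1.63 on the log2 scale, against a median of -0.05 over all tested genes and 0.34 for Icam1. Beside it, the endothelial sum was 131 TPM in library 3 and 32.8 and 54.4 TPM in libraries 1 and 2, the neutrophil sum 235 against 1.84 and 15.0 TPM, and the monocyte and macrophage sum 379 against 119 and 172 TPM. Their part in the Vcam1 value was not tested. Without this library Vcam1 rose by 5.15 (SE 0.174, limma adjusted p = 0.000482) and Icam1 by 5.35 (SE 0.280, adjusted p = 0.00124).

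The RNA of other adhesion molecules was read in the same samples. Of 28 genes with a row, 19 were tested, 8 were called higher and 0 lower, beside 7.17% called higher over all tested genes; their median change was 0.20 against -0.38 over all tested genes. Selp, which encodes P-selectin, the endothelial and platelet receptor that starts leukocyte rolling, read 3.59, 4.29 and 4.63 TPM in Vehicle and 48.5, 62.9 and 108 TPM in LPS. It rose by 3.71 (SE 0.204, limma adjusted p = 0.00029). Its libraries had the order of the endothelial sum in 3 of 3 LPS samples but in 0 of 3 Vehicle samples. Divided by that sum, Selp was 3.67 times apart in LPS (4.62 for its TPM) and 14.7 times in Vehicle (2.28 for its TPM). Sele, the E-selectin gene of activated endothelium, named here after its values were seen, was called higher at 5.96, 1.28 and 6.89 TPM in LPS 1, 2 and 3 against 0.0456 ± 0.0222 TPM in Vehicle (SD, n = 3). It passed the filter only through its LPS values, so its place among the 8 is not independent of the filter. Esam, an endothelial junction adhesion gene, rose from 4.65 ± 3.05 to 20.9 ± 8.52 TPM. Like Vcam1, it was spread less once divided by the endothelial sum. Its ratio was 1.98 times apart in LPS (5.55 for its TPM) and 2.80 times in Vehicle (14.7 for its TPM). Its libraries had the order of that sum in 2 of 3 LPS samples and 1 of 3 Vehicle samples.

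Cx3cl1, which encodes the membrane-bound chemokine fractalkine, rose by 3.86 (SE 0.259, limma adjusted p = 0.000428), from 18.6 ± 3.57 to 299 ± 119 TPM (SD, n = 3). Divided by the endothelial sum its LPS libraries lay 10.1 times apart, against 4.03 times for the TPM themselves. Pvr and Nectin2, which encode nectin-type ligands of T and NK cell receptors, rose by 2.43 and 1.07, and Cd47, the gene of an integrin-associated signal to phagocytes, by 0.52 (adjusted p = 0.04 by limma, and 0.0948 with quantile normalization). The 8 called higher also held Epcam, an epithelial adhesion gene, at 0.50. Icam2, which encodes a constitutive endothelial ligand of the same integrins, stood at 2.74 ± 2.17 and 0.816 ± 0.430 TPM and was not called. The remaining relatives Icam4, Icam5 and Madcam1 were below the filter, with group means of at most 0.280 TPM.

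The genes of the leukocyte integrins that bind ICAM-1 and VCAM-1 were low in both groups, apart from the widely expressed Itgb1. In Vehicle and LPS, Itgal stood at 1.64 ± 0.0617 and 1.10 ± 0.412 TPM and Itga4 at 0.172 ± 0.0771 and 0.141 ± 0.107 TPM (SD, n = 3). Itgb2 read 1.22, 0.337 and 0.763 TPM in the Vehicle samples and 2.07, 0.567 and 1.25 TPM in the LPS samples, which overlap, and was not called. Of 14 genes of leukocyte receptors with a row 5 were tested, with 0 higher and 1 lower and a median change of -0.34, beside 7.17% higher, 22.2% lower and a median of -0.38 over all tested genes. The 1 called lower was Itgb1, the chain shared by many integrins, at 577 ± 21.8 and 418 ± 33.7 TPM. Its change was -0.47 (limma adjusted p = 0.04). Neither median-ratio scaling (-0.06) nor quantile normalization (-0.56) gave a call. Tln1, which encodes the integrin activator talin, was not called, at 11.6 and 10.4 TPM.

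Of 32 inducers and regulators 26 were tested, with 18 called higher and 0 lower, and a median change of 1.89. Over all tested genes 7.17% were higher, 22.2% lower and the median was -0.38. Among the 18, Tnfrsf1b, Rel and Klf5 averaged 0.301, 0.534 and 0.843 TPM in Vehicle and passed the filter only through their LPS values. Relb and Nfkb2, which encode the paired subunits of the noncanonical NF-kappaB pathway, rose by 4.38 (SE 0.187) and 3.70 (SE 0.191), Relb from 8.17 ± 1.55 to 187 ± 8.64 TPM (SD, n = 3). The genes of the remaining subunits, Nfkb1, Rela and Rel, named here after their values were seen, were also called higher, at 2.55, 0.99 and 0.98. Il1b, the interleukin 1 beta gene, rose by 4.32 to 70.9, 29.3 and 30.4 TPM in LPS 1, 2 and 3, beside the monocyte and macrophage marker sums given before. Cebpd, a transcription factor gene of the acute phase, rose by 3.95, and Irf2 by 1.77. Tnf was listed at 0 in all 18 libraries.

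**Figure D5:**
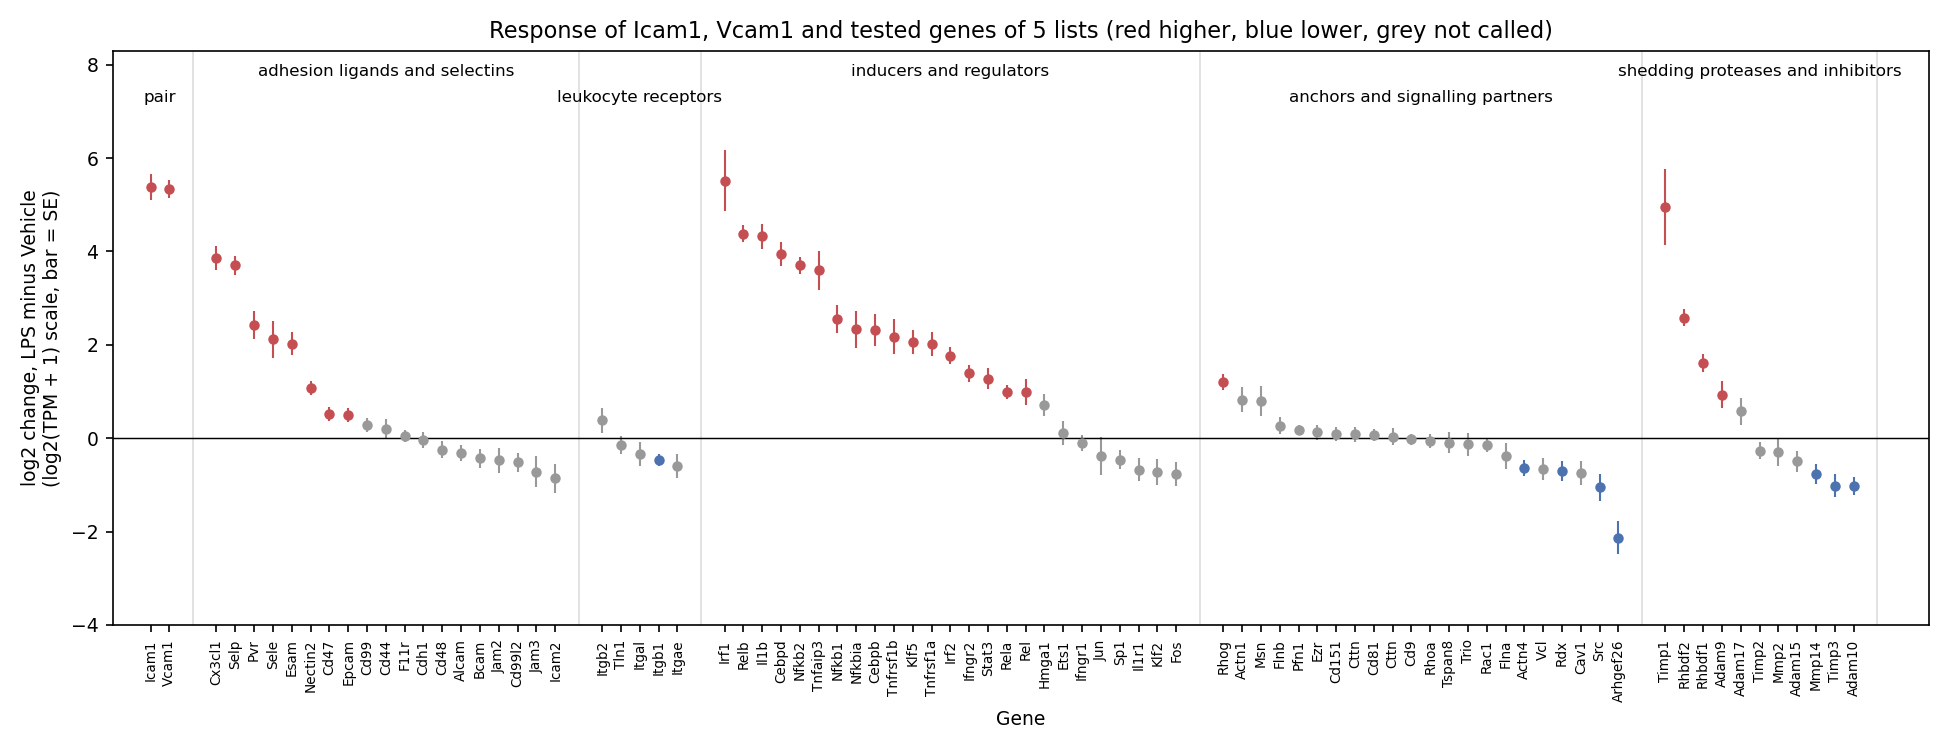
log2 change (LPS minus Vehicle, log2(TPM + 1) scale, bars SE) of Icam1, Vcam1 and tested genes of 5 lists (all but 1 regulator), sorted within each list; red genes were called higher, blue lower and grey neither. Icam1 and Vcam1, at 5.39 and 5.33, lie above the 19 tested genes of other adhesion molecules, of which Cx3cl1 is highest at 3.86.

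The genes of proteins that link ICAM-1 and VCAM-1 to actin or signal from them had 22 rows for 21 genes, Cttn having 2. All were tested, with 1 higher and 4 lower and a median change of -0.04. These counts lie near the 7.17% higher and 22.2% lower of all tested genes. Rhog, which encodes a small GTPase that acts in the endothelial cups around adhering leukocytes, rose from 54.2 ± 2.71 to 126 ± 22.2 TPM (SD, n = 3). Arhgef26, which encodes an exchange factor for that GTPase, went the other way, from 7.27 ± 1.82 to 0.957 ± 0.823 TPM, a change of -2.13 (SE 0.357, limma adjusted p = 0.0113). Src, Actn4 and Rdx, which encode a tyrosine kinase, an actinin and the linker radixin, were called lower at -1.06, -0.64 and -0.70, but these calls were lost under median-ratio scaling, at -0.68, -0.23 and -0.31, and under quantile normalization, at -0.70, -0.60 and -0.42. Actn1 was not called, at 0.82 (SE 0.268).

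Shedding, by which ADAM and other proteases release the outer parts of ICAM-1 and VCAM-1, had 15 genes with a row, of which 11 were tested, 4 called higher and 3 lower, with a median change of -0.26. Of all tested genes 7.17% were higher and 22.2% lower (median -0.38), so the count of lower genes lies near that background. Rhbdf2 and Rhbdf1, which encode the iRhom proteins that carry ADAM17 to the cell surface, rose by 2.58 (SE 0.186) and 1.60 (SE 0.196), Rhbdf2 from 5.60 ± 0.406 to 38.7 ± 3.08 TPM (SD, n = 3). Adam17 itself, named here after its values were seen, was not called, at 0.57 (SE 0.297, limma adjusted p = 0.166). Timp1, a metalloproteinase inhibitor gene, rose by 4.96 (SE 0.815), with 20.3 TPM in LPS 1 against 243 and 237 TPM in LPS 2 and 3. Adam10, Mmp14 and Timp3 were called lower at -1.03, -0.77 and -1.02 by limma, and with median-ratio scaling they stood at -0.64, -0.38 and -0.61 without a call. With quantile normalization Mmp14 and Timp3, at -0.48 and -0.90, were not called.

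Among the 9197 genes that averaged 5 TPM or more, those with a level most like Icam1 over the 6 numbered samples were Elf3, AC128859.3, RT1-N3, Ccl2 and Krt18, with Pearson r from 0.997 to 1.00 on the log2 scale. Elf3, an epithelial ETS factor gene, stood at 282 ± 62.7 and 1170.2 ± 68.0 TPM, and Ccl2, a monocyte chemokine gene, at 0.417 ± 0.589 and 125 ± 46.9 TPM (SD, n = 3). Those most like Vcam1 were Grtp1, Lipa, Csf1, Oas1g and Rps9, with r from 0.995 to 0.997. Csf1, the macrophage growth factor gene, stood at 0.883 ± 0.145 and 12.9 ± 3.11 TPM, while Rps9, a ribosomal protein gene, differed by 0.21 on the log2 scale. Icam1 and Vcam1 had r = 0.987 with each other, and 286 and 193 other genes had an r of at least 0.95 with Icam1 and Vcam1. Such an r describes likeness over 6 samples that fall into 2 groups, and any gene that differs evenly between the groups comes close to it.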

How the data were processed

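The deposited table holds TPM (a length-corrected relative abundance, made by the authors) for 32883 genes in 18 libraries. STAR 2.7.9a, RSEM 1.3.3 and build Rnor_6.0 are named, per the submitters' processing notes; annotation release and filters: not given in the sources used here. Per the labels' protocols, RNA was copied with a low-input kit, PCR-amplified and tagmented. TPM keeps no read number, so depth is unknown and intervals from counts cannot be had; 11399 to 12704 genes per library reached 1 TPM. Column names beginning with N were read as normal saline Vehicle and with L as LPS; 0 columns belonged to other samples and 0 libraries were identical.

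Each library was put on the log2(TPM + 1) scale, and the 3 libraries of each numbered sample were averaged; TPM given per sample are plain means of its libraries. The 12393 genes that averaged 1 TPM or more were tested by limma 3.58.1 in R 4.3.3 (variance trend, two-sided, Benjamini-Hochberg over all of them, call at adjusted p under 0.05), blocked by sample number since the series' design text describes pairs; deviations of same-numbered samples correlated at 0.062, -0.017 and 0.069 across genes. The fit has 2 residual and 4.97 prior degrees of freedom. The filter averages over both groups, so a gene under 1 TPM in 1 group can pass it through the other group alone. Genes such as Sele, Flt1, Tnfrsf1b, Rel and Klf5 did so through LPS, and their calls are not independent of the filter. In simulated data of 11831 genes, 88% of 8-fold and 36% of 2-fold changes were called, and 9 of 11631 unchanged genes. The simulated noise had the Vehicle spread in both groups and was independent between genes and samples. These shares need not hold for the real samples, where LPS 1 stood apart over many genes. Icam1 and Vcam1, the lists and the tests were chosen with earlier results of these data known. Genes named from each list were at most 6, in order of p, whose higher group averaged 5 TPM or more; others were chosen after their values were seen. Symbols with no row, such as Pecam1, were not analysed here, and 1 gene of the regulator list is counted but not reported by name.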

Additional observations from a re-analysis of the deposited data

Results flagged for a closer look

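Over the 9 libraries of each group, the gap of the highest or lowest TPM to its nearest neighbour was divided by the range. This was done for 56 such groups of Icam1, Vcam1 and the other genes of the naming rule, and 7 were flagged. For independent, normally distributed values, chance alone gives a flag in about 1 of 20 groups. Libraries of 1 sample are not independent and the TPM were not put on the log2 scale, so that share need not hold. Whether the flags remain on the log2 scale was not tested. In LPS 3 library 3, Vcam1 stood at 299 TPM with the next library at 149, Selp at 194 with the next at 79.1, and Esam at 52.1 with the next at 25.5; all of these were far above the other LPS libraries, in the library with the highest endothelial and neutrophil marker sums of the LPS group. In LPS 1 library 1, Nfkb2 stood at 197 TPM with the next at 154, and Actn4 at 229 with the next at 152. In Vehicle 1 library 3, Il1b stood at 5.01 TPM with the next at 2.40, and Cebpd at 47.4 with the next at 31.8. No library of Icam1 stood apart in this way in either group.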

How the results depend on the processing

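Icam1 rose by 5.16 to 5.82 (log2) and Vcam1 by 5.15 to 6.01 over 12 alternatives, and both were called in 10. The exceptions were the median of the libraries (5.23 and 5.20, adjusted p = 0.0545, unadjusted p = 0.000234 and 2.24e-05) and leaving out the samples numbered 3; without 1 sample number the ranges were 5.16 to 5.82 and 5.22 to 5.41. The cause was not tested. Fits without the replicate block gave 5.39 and 5.33, with 912 genes higher and 3624 lower against 889 and 2757, and 1 regulator lower. The difference between the responses (-0.06) turned to 0.48 with a pseudocount of 0.1, which raises the weight of low values, and ranged from -0.41 to 0.20 without 1 sample number; a paired sign-flip permutation gave p = 1.00 (smallest possible 0.25). Over all genes, 18 rose and 2 fell without a filter, where the lists held 1 adhesion gene, 2 regulators, 0 anchors and 1 shedding gene higher and 0 members lower. With the median of the libraries limma called 0 and 0 (1019 and 4167 unadjusted), 0 list members included. Falls depended on scaling: median-ratio scaling called 821 genes higher and 460 lower (median change -0.02), with 0 receptors, 1 anchor and 0 shedding genes lower, and quantile normalization 809 and 579 (median -0.12), with 0, 1 and 1. Without 1 sample number, counts ran from 0 to 1004 higher and 0 to 3595 lower (419 and 296 without the samples numbered 2, 0 and 0 without those numbered 3); list members called higher ran from 0 to 6 for adhesion, 0 to 17 for regulators, 0 to 3 for anchors and 0 to 5 for shedding genes, and lower from 0 to 1 for adhesion, receptors and regulators, 0 to 4 for anchors and 0 to 2 for shedding genes. Without Vehicle 1 libraries 2 and 3, an alternative chosen after seeing the data like that without LPS 3 library 3, 2 anchors were higher. Of 310 values of 26 other genes of the naming rule, 215 stayed on their side of the threshold, 93 lost the call, 2 gained one and 0 of the called ones changed sign. With unknown depth, levels near 0 carry no counting error.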
